A study of Mus musculus with 45 samples.

Results

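The RNA of sorted 2-cell-like cells (2CLCs) was compared with and without the histone methyltransferase EHMT2, over 3 DMSO and 3 dTAG libraries out of the 45 libraries of the series. The cells were mouse embryonic stem cells (mESCs) with the strain label BL6/129, derived from KH2 cells (a C57BL/6J x 129S1 F1), from a line named EHMT2-dTAG-mcherry-mervl-gfp, and all sorted groups carried the same alleles. In that line EHMT2 is fused to a degron tag and an mCherry reporter follows Ehmt2 transcription, so that the degrader dTAG-13 removes the protein while DMSO is the vehicle control. GFP was driven by elements of the endogenous retrovirus MERVL. Cultures in serum and LIF received the vehicle or the degrader during 72 h, and GFP-positive cells were sorted as 2CLCs (groups DMSO 2CLC and dTAG 2CLC) while GFP-negative cells of the same cultures were sorted as mESCs (DMSO mESC and dTAG mESC). The reporter lines were picked as single colonies and kept on feeder fibroblasts, so they model clones of 1 genotype in culture and not an embryo. The members were found by their labels, which use the GFP gate, the treatment and the 72 h time and no expression value.

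EHMT2, also called G9a, works as a complex with EHMT1 and places mono- and dimethyl marks on lysine 9 of histone H3, a repressive modification of gene-rich chromatin. A small part of any mESC culture passes through a transient state that resembles the embryo at zygotic genome activation, in which MERVL elements, the Zscan4 genes and other transcripts of the 2-cell stage are expressed. The transcription factors DUX and DPPA2/4 are known activators of that program, and EHMT2 is known to hold MERVL silent in mESCs. The comparison within the sorted cells asks which transcripts differ between GFP-positive cells from cultures with and without EHMT2. The treatment ran for 72 h before the sort, so cells could enter the 2-cell-like state after EHMT2 was lost. The paper reports that depletion raised the share of GFP-positive cells. Repression in cells already in the state was not tested apart from entry without EHMT2.

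Values are the authors' group means of read counts divided by size factors ("normalized counts"), 1 mean for each group of 3 libraries, so the spread between libraries appears here only in the standard errors (SE) of the authors' deposited fold changes. No library-level value was at hand, and the depth of each library is unknown from these tables. A feature was called when the adjusted p of the deposited Wald test was under 0.05 and its level differed by at least 2-fold (a log2 fold change of 1), and it counted as tested when it had an adjusted p. The groups of 3 were described as triplicate cultures, and their p-values measure the spread between those libraries.

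Markers of the 2-cell-like state were far higher in the GFP-positive groups, and markers of other cell types were mixed. The DUX target Zfp352 stood at 2.72 normalized counts in DMSO mESC and 73.7 in dTAG mESC, against 1928 in DMSO 2CLC and 7042 in dTAG 2CLC. Zscan4c, a marker of the 2-cell-like state that protects telomeres, had means of 255, 1934, 44464 and 52636 in the same order. The pluripotency factor Pou5f1 was lower in both 2CLC groups (3247 and 3320.1) than in DMSO mESC (6183) or dTAG mESC (4871), and it was not absent there. Sox2, Klf4 and Esrrb were lower in 2CLC too. Nanog was higher in DMSO and dTAG 2CLC (8924 and 10184) than in DMSO and dTAG mESC (6350 and 7785). The trophoblast factor Elf5 was under 1 in both 2CLC groups. Gata3, from the same marker list, had 37.2 and 27.3 in DMSO and dTAG 2CLC against 1.25 and 3.41 in mESC. Ehmt2 RNA was 64.6 in DMSO 2CLC and 67.5 in dTAG 2CLC (log2 fold change 0.05, SE 0.45, adjusted p = 0.98). The degrader acts on the protein, so the level of this RNA does not check the depletion.

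Transcripts that differed in sorted 2CLCs were mainly higher after loss of EHMT2. Of 18413 genes tested, 476 were called higher in dTAG 2CLC (2.59% of those tested) and 78 were called lower (0.424%), and 2902 genes had an unadjusted p under 0.05. The genes called higher had a median log2 fold change of 1.51 (interquartile range 1.25 to 1.93), and those called lower had a median of -1.43, while the median over all tested genes was -0.00. Protein-coding genes made up 63.7% of the genes called higher against 76.0% of the genes tested. Long intergenic RNAs (49 genes, 10.3% against 2.74%) and unprocessed pseudogenes (33 genes, 6.93% against 1.10%) took larger shares of the called genes than of the tested genes. These shares are descriptions and carry no test.

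**Figure D1:**
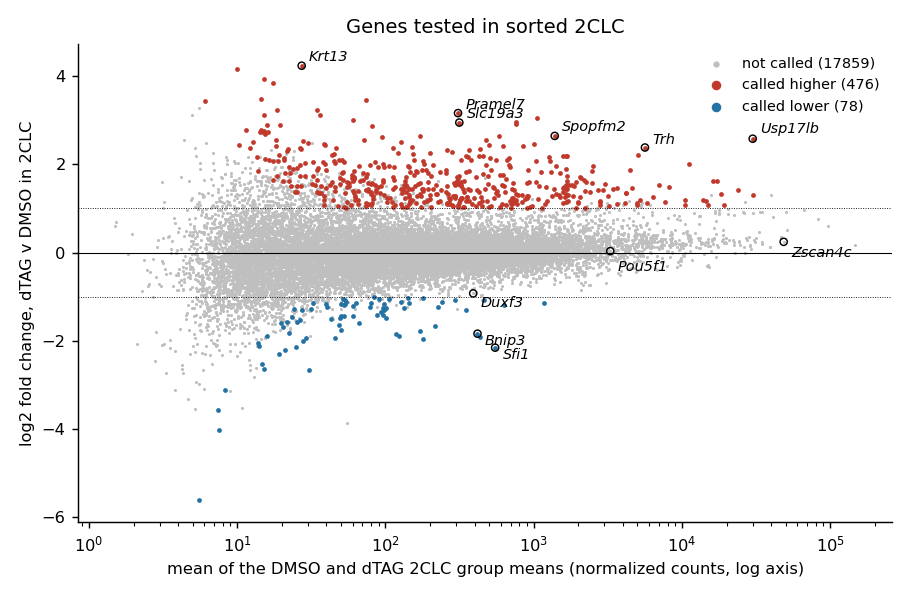
Each point is 1 tested gene, with the mean of its DMSO 2CLC and dTAG 2CLC group means on the x axis (normalized counts, log axis) and its log2 fold change between dTAG and DMSO in 2CLC on the y axis. The 476 genes called higher (red) reach from low to very high levels and outnumber the 78 called lower (blue), and the dotted lines mark a 2-fold change.

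The GFP-negative mESCs of the same cultures gave the nearest comparison, with no library in common. The paper calls both sorted populations highly pure, and does not call them free of other cells. The summed level of the Zscan4 family was 12314 in dTAG mESC and 317425 in dTAG 2CLC, and Usp17lb had 2569.7 and 51418. The part of carried-over GFP-positive cells in the mESC effects, and in their differences from the 2CLC effects, was not tested. The test of the difference between both effects takes them as independent, and since the cells share cultures, its errors and calls are approximate. There, 902 of 21228 tested genes were called higher (4.25%) and 154 lower (0.725%). Of the 476 genes higher in 2CLC, 282 were also called higher in mESC, which is 59.2% of the 2CLC list and 31.3% of the mESC list. The 194 others had a median log2 fold change of 0.77 in mESC, and only 19 of them had a difference between both effects that passed its own test. Of the 78 genes lower in 2CLC, 18 were also lower in mESC (23.1% of the 2CLC list, 11.7% of the mESC list).

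Unsorted cultures treated for 24 h, 7 d and 15 d with dTAG or DMSO came from other cells, the EHMT2-dTAG-mcherry clones E2-17, E2-20 and E2-K71 with no MERVL reporter, and from another library preparation. They differ from the sorted cells in clone, time, sorting and preparation at once, and the shares below cannot tell these apart. At 24 h 2.1% of tested genes were called higher and 0.872% lower, at 7 d 3.77% and 2.76%, and at 15 d 2.99% and 0.312%. Of the 476 genes called higher in 2CLC, 353 were tested at 24 h, 412 at 7 d and 426 at 15 d. Of the 78 called lower, 75, 75 and 76 were tested in the same order. Shares are over the whole 2CLC list, so untested genes count as not shared. The genes called higher in 2CLC shared 82 genes with those higher at 24 h (17.2% of the 2CLC list, 18.6% of the 24 h list). With 7 d of treatment 205 genes were shared (43.1% and 22.5%), and with 15 d 173 genes were shared (36.3% and 25.1%). Among genes called lower, 21 were shared with 7 d (26.9% and 3.14%), 3 with 24 h (3.85% and 1.64%) and 1 with 15 d (1.28% and 1.39%). In unsorted cultures, as in any bulk sample, more cells of a type and more RNA per cell cannot be told apart.

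Many of the genes that rose in 2CLCs had almost no RNA in unperturbed mESCs, a level read from libraries outside the comparison. Of the 476, 241 (50.6%) had a mean under 5 in DMSO mESC, against 7.17% of all tested genes. Among 608 tested genes with a DMSO mESC mean under 1, 24.5% were called higher in 2CLC, and among 713 genes from 1 to under 5, 12.9% were. The share dropped to 2.75% from 5 to under 20, 2.2% from 20 to under 100, 0.593% from 100 to under 1000 and 0.396% above. A gene with almost no RNA in DMSO mESC enters the test only if another sorted group expresses it. Among genes already at 20 or more in DMSO 2CLC, the first pair of shares was 31.3% (126 of 402) and 20.1% (73 of 364), and the last was 0.396% (7 of 1766).

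**Figure D2:**
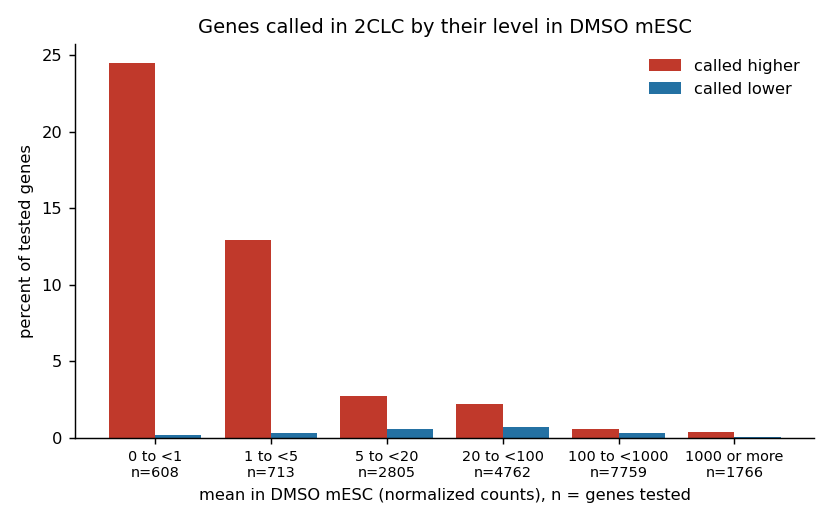
Bars give the percentage of tested genes called higher (red) or lower (blue) in dTAG 2CLC against DMSO 2CLC, in bins of the mean in DMSO mESC (normalized counts), with the number of genes tested under each bin. The share called higher is 24.5% in the lowest bin and 0.396% in the highest, and the share called lower stays under 1 percent in every bin.

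The genes of the 2-cell stage were then read family by family. A list of 50 such genes had 48 tested members, of which 25 were called higher in 2CLC and 0 lower, with a median log2 fold change of 1.19. In mESC 43 of the 48 were called higher, with a median of 3.72, and for 27 of the 48 the 2CLC effect was smaller by the test of the difference. The lists were chosen with earlier results of these data known, so their counts describe the genes and are no independent evidence of a direction. Reads that match several copies of a gene were placed at 1 random copy by the authors, so values of single members in the families below are uncertain, and the family as a whole is the safer reading.

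The Spopfm and Tdpoz genes, which encode speckle-type POZ-domain and TRAF-domain proteins of the cleavage-stage embryo, all rose. All 12 members were tested and all 12 were called, with a median log2 fold change of 1.96 and a range from 1.31 to 2.95. Their summed level went from 4982 in DMSO 2CLC to 20434 in dTAG 2CLC, while it was 19.7 in DMSO mESC and 389 in dTAG mESC. The largest change was that of Tdpoz5, from 174 to 1355 (log2 fold change 2.95, SE 0.25, adjusted p = 2.9e-29). Tdpoz7 went from 177 to 1334 (2.91, SE 0.33) and Spopfm2 from 382 to 2391 (2.64, SE 0.22). The smallest change of the family was in Tdpoz3, at 476 and 1183 (1.31, SE 0.21).

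The Usp17l genes, which encode deubiquitinating enzymes, rose as a family and included the most abundant gene called. All 5 tested members were called higher, at a median log2 fold change of 1.63. Usp17lb had 8598 normalized counts in DMSO 2CLC and 51418 in dTAG 2CLC (log2 fold change 2.58, SE 0.36, adjusted p = 4.5e-10), and Usp17la had 4499.9 and 17955 (2.00, SE 0.31). In mESC the same genes went from 53.3 to 2569.7 and from 33.9 to 1145, larger folds from a far lower level. The Eif1a-like genes, relatives of a translation initiation factor, had 13 tested members of which 6 rose. Gm2016 went from 17393 to 43094 (1.31, SE 0.40, adjusted p = 0.031) and Gm8300 from 13058 to 34944 (1.42, SE 0.38). The other 7 did not pass, and all 13 fold changes were above 0.

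Among other genes of the stage, Zfp352, a zinc-finger gene of the 2-cell embryo, rose with a log2 fold change of 1.87 (SE 0.24, adjusted p = 2.0e-12). Eif4a3l1, a relative of an RNA helicase of the exon junction, passed narrowly, from 12326 to 25927 (1.07, SE 0.35, adjusted p = 0.047). Tcstv3, a gene of the 2-cell stage, rose from 1349 to 3469 (1.36, SE 0.28), whereas its neighbour Tcstv1 had 1538 and 3361 with a wider error (1.13, SE 0.61, adjusted p = 0.36). Sp110 came close to the 2-fold limit, at 1817 and 3596 (0.98, SE 0.23, adjusted p = 9.1e-04).

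The Zscan4 family did not follow. None of its 9 tested members was called in 2CLC by the deposited test, with a median log2 fold change of 0.14 and a range from -0.36 to 0.81, and all 9 were called higher in mESC with a median of 2.73. The summed level was 263709 in DMSO 2CLC and 317425 in dTAG 2CLC, and it was 1546 in DMSO mESC and 12314 in dTAG mESC. Zscan4c had a log2 fold change of 0.24 in 2CLC (SE 0.59, adjusted p = 0.91) and 2.92 in mESC (SE 0.59). Zscan4d had 0.81 (SE 0.59) and 3.79 (SE 0.59). For 4 of the 9 the difference between both effects passed its test, and the SE in 2CLC was between 0.38 and 0.67, so that a 2-fold rise lay within 2 SE of the estimate for 8 of the 9. Duxf3, a copy of the activator DUX, stood at 512 in DMSO 2CLC and 269.9 in dTAG 2CLC (-0.92, SE 0.40, adjusted p = 0.20), but in mESC it rose from 4.96 to 30.0 (2.59, SE 0.55), and its effects differed by -3.51 (SE 0.68, adjusted p = 4.6e-05). The cofactor gene Dppa2 had means of 4063 and 3922 in 2CLC (-0.05, SE 0.25).

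**Figure D3:**
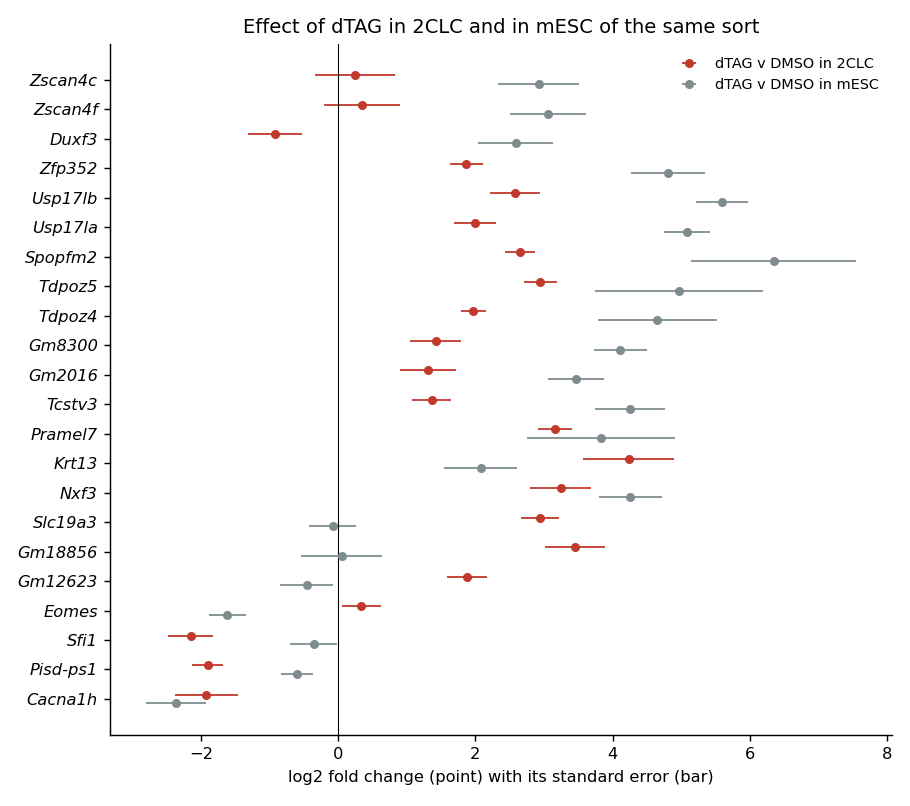
Points are log2 fold changes between dTAG and DMSO in sorted 2CLC (red) and sorted mESC (grey) for 22 named genes, with bars of 1 standard error from the authors' fit of 3 libraries a group. Zscan4c lies near 0 in 2CLC (0.24) and at 2.92 in mESC, Usp17lb is high in both, and Slc19a3 and Gm18856 are high in 2CLC alone.

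Other multi-copy families had fewer called members, beside 2.59% of all tested genes called higher and 0.424% lower. Among tested genes with a DMSO mESC mean under 1 and from 1 to under 5, the shares higher were 24.5% and 12.9%. Without genes under 5 in DMSO mESC, 0 of 10 Obox, 0 of 4 PRAME-like and 0 of 6 olfactory receptor genes were called higher. Of the vomeronasal receptor genes, 1 of 8 was. Of 29 Obox homeobox genes and pseudogenes tested, 3 were called higher and 0 lower, at a median of 0.72. Of 12 tested PRAME-like genes 3 were called higher, led by Pramel7, which acts in the preimplantation embryo. Pramel7 went from 62.3 to 555 (3.16, SE 0.25, adjusted p = 3.4e-33). Olfactory receptor genes had 32 tested members of 1410 in the annotation, and 5 were called higher and 1 lower. Olfr376 rose from 394 to 1444 (1.88, SE 0.21), while the pseudogene Olfr1372-ps1 fell from 262 to 77.6 (-1.77, SE 0.42). Of 21 tested vomeronasal receptor genes 2 were called higher, with Vmn1r88 at 974 and 2423 (1.31, SE 0.32). Of 10 members of the X-linked Magea family, cancer-testis antigens, 2 were tested and both were called. Magea5 went from 2.03 to 33.0 and Magea8 from 3.74 to 33.3, at low levels. The family summed to 0.466 and 10.1 in DMSO mESC and 2CLC, against 27.1 and 108 in dTAG mESC and 2CLC. Genes this low enter the test largely through the dTAG groups, so these calls carry no weight as a family count.

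Genes called higher were often neighbours. Runs of at least 4 called genes with at most 1 uncalled tested gene between neighbours held 80 of the 476 genes (16.8%), in 9 runs. The longest run lay on chromosome 3 from 93628640 to 94266784 (GRCm38) and held most Tdpoz and Spopfm genes: all 24 tested genes in it were called, at a median log2 fold change of 2.02. Its summed level went from 7882 in DMSO 2CLC to 32207 in dTAG 2CLC, and 22 of the 24 were also called higher in mESC. The second run, on chromosome 7 from 20260451 to 23278900, had 15 of 16 tested genes called (median 2.16), and 15 of the 16 were called higher in mESC. Many members of a run are copies of one another, so they are not independent observations.

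A run on chromosome 10 had another pattern. The 9 tested genes between 118243800 and 118354105, from Gm9029 to Gm9049, were all called higher in 2CLC, at a median of 1.53, and 0 of the 9 were called in mESC, at a median of -0.22. Their summed level was 1321 in DMSO mESC and 1133 in dTAG mESC, and it went from 7383 in DMSO 2CLC to 21199 in dTAG 2CLC. For 6 of the 9 the 2CLC effect was greater by the test of the difference. Gm9048 went from 1122 to 3378 in 2CLC (1.59, SE 0.30) and had 157 and 139 in mESC (-0.18, SE 0.32). Over whole chromosomes, chromosome 3 had the highest share of tested genes called higher, 46 of 895 (5.14%). Of these 46, 24 lie in the single run with most Tdpoz and Spopfm genes. Chromosomes 13, 12 and 14 followed with 4.37%, 3.83% and 3.72%. The X chromosome had 20 of 662 (3.02%), beside 2.59% of all tested genes.

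**Figure D4:**
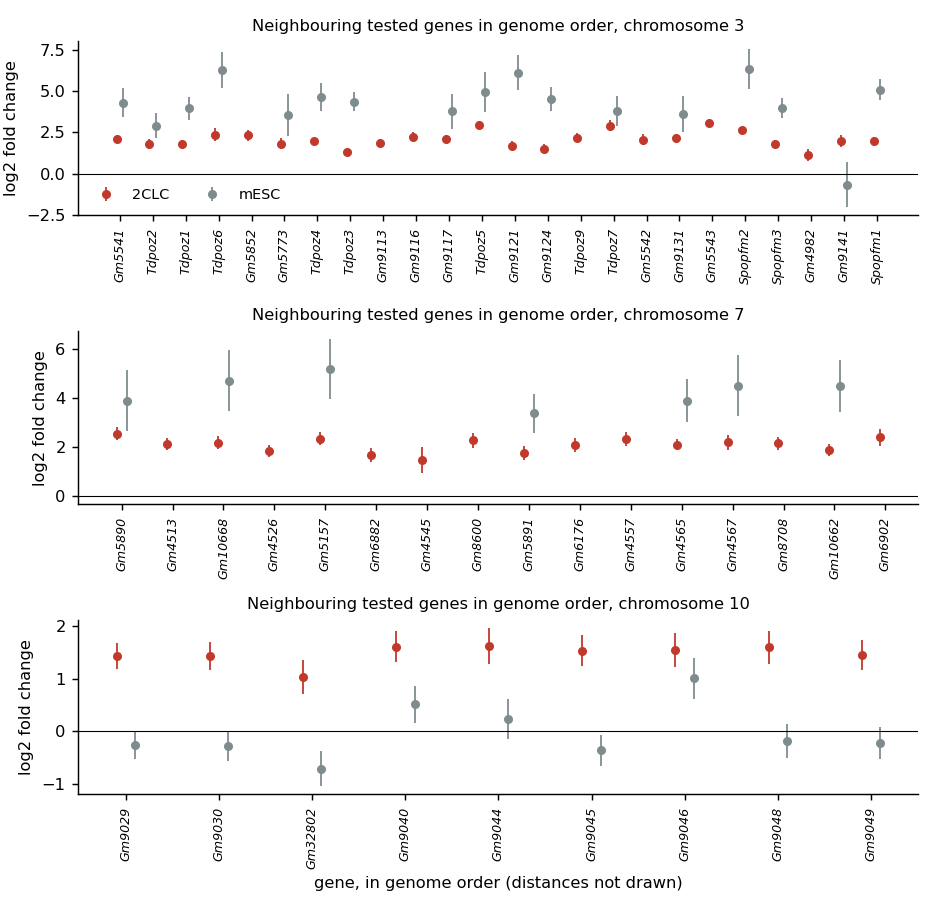
Log2 fold changes between dTAG and DMSO with bars of 1 standard error, in 2CLC (red) and mESC (grey), for the tested genes of 3 runs in genome order on chromosomes 3, 7 and 10. In the first pair the mESC values mostly exceed the 2CLC values, and on chromosome 10 the 2CLC values lie between 1.04 and 1.61 while those in mESC scatter around 0. Genes listed at 0 in DMSO mESC have no grey point.

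The promoters of the called genes were read from RefSeq (GRCm38.p6), from 250 bases before to 50 bases after the gene start, for the 219 of 476 genes called higher that matched a RefSeq promoter by symbol. Those promoters held 63756 different 11-letter words, with both strands read as 1, and 11 of the words were in the promoters of at least 10 genes. The word shown here is the one of these 11 whose tested carriers had the highest share called higher (57.1%), so its share among the called genes is what chose it and is no test. That word was ACACACCTTTA (reverse complement TAAAGGTGTGT), and 8 of the other 10 overlap with it or extend the same stretch, while the last pair are a run of A and a run of A that ends in G. It was present in 44 of 27025 promoters (0.163%), in 28 of 11608 tested genes with a promoter (0.241%), in 16 of the 219 called higher (7.31%) and in 0 of 53 called lower. Of those 16, 14 came from the 86 genes with a DMSO mESC mean under 5 (16.3%) and 2 from the other 133 (1.5%). Among genes called higher in mESC it was in 25 of 425 (5.88%). Many of these genes are copies of one another, so the shares count related sequences, and a match is a description and not a binding site. The sequences below show 5 genes that rose and hold the word, from 4 chromosomes, followed by Usp17lb and Slc19a3, which rose without it, and Zscan4c, which was not called. Capitals mark the word or its reverse complement.
Spopfm2 (chr3:94178144-94178443, minus strand): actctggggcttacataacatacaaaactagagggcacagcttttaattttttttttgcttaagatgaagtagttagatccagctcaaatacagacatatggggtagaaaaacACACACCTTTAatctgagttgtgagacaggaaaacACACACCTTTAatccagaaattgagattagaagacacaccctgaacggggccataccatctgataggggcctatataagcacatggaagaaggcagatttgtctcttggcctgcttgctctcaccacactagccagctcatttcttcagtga
Tdpoz8 (chr3:93068573-93068872, plus strand): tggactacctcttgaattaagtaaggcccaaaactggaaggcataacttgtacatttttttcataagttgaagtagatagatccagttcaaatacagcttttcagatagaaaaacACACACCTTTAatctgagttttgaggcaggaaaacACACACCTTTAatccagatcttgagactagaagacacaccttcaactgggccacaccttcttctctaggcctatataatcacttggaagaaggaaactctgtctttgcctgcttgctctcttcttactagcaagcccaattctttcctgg
Gm4513 (chr7:20598972-20599271, minus strand): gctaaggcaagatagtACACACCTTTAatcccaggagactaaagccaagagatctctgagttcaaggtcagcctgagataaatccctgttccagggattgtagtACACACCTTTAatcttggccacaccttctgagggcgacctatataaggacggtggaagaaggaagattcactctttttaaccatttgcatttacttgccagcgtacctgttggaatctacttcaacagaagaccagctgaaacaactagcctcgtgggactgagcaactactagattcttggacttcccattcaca
Zfp352 (chr4:90218570-90218869, plus strand): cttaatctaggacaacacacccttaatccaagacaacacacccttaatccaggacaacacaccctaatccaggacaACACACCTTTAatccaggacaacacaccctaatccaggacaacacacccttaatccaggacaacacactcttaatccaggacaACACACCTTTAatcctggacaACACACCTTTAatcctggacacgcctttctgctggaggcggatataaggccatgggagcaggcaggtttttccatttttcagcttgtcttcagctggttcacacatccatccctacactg
Eif4a3l1 (chr6:136327289-136327588, plus strand): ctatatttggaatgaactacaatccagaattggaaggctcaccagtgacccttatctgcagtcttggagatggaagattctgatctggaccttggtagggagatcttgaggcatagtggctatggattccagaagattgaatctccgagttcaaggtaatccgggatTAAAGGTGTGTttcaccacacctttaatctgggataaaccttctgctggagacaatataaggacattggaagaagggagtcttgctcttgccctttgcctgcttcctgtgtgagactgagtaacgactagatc
Usp17lb (chr7:104842534-104842833, minus strand): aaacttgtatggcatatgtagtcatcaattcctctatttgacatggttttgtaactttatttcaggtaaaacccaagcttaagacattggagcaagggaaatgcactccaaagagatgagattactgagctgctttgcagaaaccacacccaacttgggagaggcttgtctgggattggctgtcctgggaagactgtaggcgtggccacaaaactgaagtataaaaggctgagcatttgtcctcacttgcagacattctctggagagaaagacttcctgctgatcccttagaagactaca
Slc19a3 (chr1:83038399-83038698, minus strand): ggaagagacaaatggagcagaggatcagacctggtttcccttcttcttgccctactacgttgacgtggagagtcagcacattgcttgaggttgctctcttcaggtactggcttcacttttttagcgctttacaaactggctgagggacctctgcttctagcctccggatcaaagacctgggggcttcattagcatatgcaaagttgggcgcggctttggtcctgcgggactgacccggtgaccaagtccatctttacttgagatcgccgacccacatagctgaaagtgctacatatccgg
Zscan4c (chr7:11005495-11005794, plus strand): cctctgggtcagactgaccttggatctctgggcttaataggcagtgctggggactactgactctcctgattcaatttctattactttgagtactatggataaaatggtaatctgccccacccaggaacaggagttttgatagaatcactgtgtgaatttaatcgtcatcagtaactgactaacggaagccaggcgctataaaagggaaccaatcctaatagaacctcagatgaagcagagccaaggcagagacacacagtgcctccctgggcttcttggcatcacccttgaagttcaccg
The word occurs in 2 copies in the promoters of Spopfm2, Tdpoz8 and Gm4513, in 3 copies in that of Zfp352 and, as its reverse complement, in 1 copy in that of Eif4a3l1. Their log2 fold changes in 2CLC were 2.64, 1.85, 2.14, 1.87 and 1.07. All 28 tested genes with the word had a fold change above 0, at a median of 1.37, and 12 of them were not called. The word was chosen by the calls of its carriers, so these values follow in part from that choice and are no test. The 12 had a median of 0.91, and they include neighbours on chromosome 10 (Gm4340, Gm21293, Gm21304, Gm8764, Gm21312 and Gm20765). Gm4340, an abundant gene of the 2-cell stage with the word, was among these 12, at 45069.8 and 87976 (0.96, SE 0.40, adjusted p = 0.17).

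Beyond the families of the 2-cell stage, the largest rises came from genes of varied function. Krt13, a keratin of stratified epithelia, had the largest fold among protein-coding genes of at least 20 counts, from 2.71 to 51.7 (log2 fold change 4.23, SE 0.66, adjusted p = 4.9e-08), and it rose in mESC as well (2.08, SE 0.53). The X-linked RNA export gene Nxf3 went from 6.71 to 62.3 (3.24, SE 0.45) and had a like change in mESC (4.26, SE 0.46). Ddx60, an antiviral helicase, went from 7.61 to 65.3 (3.12, SE 0.63). The homeobox gene Meox2 went from 3.26 to 27.0, the chemokine gene Ccl2 from 4.79 to 34.0 and the tight junction gene Cldn2 from 3.80 to 27.8, each with an SE of at least 0.67 on the log2 scale. These are low levels even after the rise. Among pseudogenes and noncoding genes of at least 20 counts the largest called folds were those of AA414992, 4921533I20Rik, Gm18856 and Gm5543, and the last of these was the most abundant of them, at 225 and 1884 (3.06, SE 0.20).

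A pair of genes named after their values were seen rose from higher levels. Trh, the precursor of thyrotropin-releasing hormone, went from 1814 to 9445 in 2CLC (2.38, SE 0.21) and from 2911 to 9932 in mESC (1.77). Fundc1, a mitophagy receptor, went from 1057 to 3327 in 2CLC (1.65, SE 0.22), and in mESC it had 173 and 248 (0.52, adjusted p = 0.21).

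Effects that differed between the cell states were tested on the difference itself. The 2CLC effect was greater for 35 genes (0.19% of 18413) and smaller for 314 (1.71%), with 1576 genes at an unadjusted p under 0.05, of which 504 were greater. Slc19a3, a thiamine transporter, had 23.6 in DMSO mESC and 22.5 in dTAG mESC, and it rose from 71.5 to 558 in 2CLC (2.95, SE 0.28). Its effects differed by 3.03 (SE 0.44, adjusted p = 1.5e-08). The pseudogenes Gm18856 and Gm12623 showed the same pattern, with differences of 3.40 (SE 0.73) and 2.34 (SE 0.49). Eomes, a T-box factor of trophoblast and mesendoderm, fell in mESC from 125 to 41.1 (-1.62, SE 0.27) and stood at 53.9 and 68.8 in 2CLC (0.34, SE 0.29, adjusted p = 0.64). Its effects differed by 1.95 (SE 0.39, adjusted p = 1.3e-04). Rgs11, which restrains G-protein signalling, likewise fell in mESC (-2.07, SE 0.52) and had 15.2 and 30.4 in 2CLC (0.96, SE 0.52, adjusted p = 0.36).

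The genes that fell were fewer, and the largest falls were mostly at low levels. Of all genes called lower, 3 (3.85%) had a mean under 5 in DMSO mESC. Sfi1, a centrosome gene, fell from 897 in DMSO 2CLC to 202 in dTAG 2CLC (-2.15, SE 0.33, adjusted p = 1.0e-08), and it had 101 and 78.4 in mESC. Its neighbour on chromosome 11, the pseudogene Pisd-ps1, fell from 689 to 184 (-1.91, SE 0.23), and for both the 2CLC effect differed from that in mESC (-1.79, SE 0.47, and -1.31, SE 0.33). The related pseudogene Pisd-ps2 on chromosome 17 fell from 52.7 to 8.70. Col23a1, a transmembrane collagen, fell from 25.9 to 4.46 (-2.63, SE 0.76), Pdia5 from 40.9 to 9.28, and Tgfa, a ligand of the EGF receptor, from 44.4 to 11.0 with an SE of 0.49 on the log2 scale. The calcium channel gene Cacna1h fell in 2CLC from 72.7 to 19.3 (-1.93, SE 0.46) and in mESC from 116 to 22.8 (-2.37, SE 0.43). Kbtbd13, Fam163a, Trpv4, Fmnl1 and Cybrd1 were the other protein-coding genes among the 10 lowest with a 2CLC mean of at least 20, and some genes under that level had lower fold changes. No gene was called higher in 2CLC and lower in mESC, whereas 2 genes, AU022751 and the pseudogene Gm8689, were lower in 2CLC and higher in mESC. AU022751 went from 331 to 153 in 2CLC and from 26.1 to 55.1 in mESC.

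Markers of feeder fibroblasts moved in the same comparison. Of 18 listed markers 14 were tested and 8 were called higher in 2CLC, at a median log2 fold change of 1.33, and in mESC 4 were called higher, at a median of 1.14. Their summed level was 5237 in DMSO 2CLC and 9708 in dTAG 2CLC, and 8055 and 10140.5 in DMSO and dTAG mESC. Fn1 and Vim made up most of each sum, and Fn1 alone had 5956 in DMSO mESC and 3017 in DMSO 2CLC. By contrast, Col1a1, Col1a2, Prrx1 and Postn were higher in 2CLC than in mESC under both treatments. Loxl1 and Pdgfrb were higher in 2CLC under dTAG only. The 4 markers without an adjusted p were low in DMSO 2CLC and in dTAG 2CLC: Lum and Fap were under 1 in both groups, S100a4 had 0.586 and 6.0, and Dcn reached 4.59 in dTAG 2CLC from a lower mean. Col1a2, a fibrillar collagen, rose from 166 to 483 (1.54, SE 0.37) and Vim, an intermediate filament of mesenchymal cells, from 890.2 to 2131 (1.26, SE 0.27), while Thy1 had 561 and 554 (-0.01, SE 0.20). Of 32 collagen genes tested, 6 were higher and 2 lower. Matrix and secreted genes outside the lists, named after their values were seen, also rose: Lox went from 576 to 2048, Thbs1 from 1242 to 3717, Bgn from 466 to 1399.8 and Ccl7 from 9.10 to 50.7. The part of feeder cells in these rises, and in that of Ccl2, was not tested. Without the genes of the feeder and collagen lists, 464 genes were higher and 76 lower.

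Mitochondrially encoded transcripts stood at 1.73% of gene counts in DMSO 2CLC and 2.58% in dTAG 2CLC, and at 1.39% and 2.93% in DMSO and dTAG mESC. None of the 34 tested was called in 2CLC by the deposited test, at a median log2 fold change of 0.77 with all 34 above 0, and their part in other changes was not tested. A pair of inducible heat shock genes were the only members called among 20 tested stress genes: Hspa1a went from 4787 to 10547 and Hspa1b from 6454 to 14628, and their reads can be shared since both are near-identical.

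Most regulatory groups had no called member. Over all tested genes 2.59% were called higher and 0.424% lower, so few or no calls are likely in lists of this size. Of 22 naive pluripotency genes 0 were called, at a median of -0.04, with Nanog at 8924 and 10184 (0.19, SE 0.17) and Klf4 at 1257 and 1036 (-0.28, SE 0.18). Of 24 factors of H3K9 methylation and heterochromatin 0 were called (median -0.10), and Ehmt1, the partner of EHMT2, had 503 and 472 (-0.09, SE 0.16). Of 22 known repressors of the 2-cell-like state 0 were called (median 0.07). There was also no call among 15 primitive endoderm, 14 trophoblast, 16 neuronal, 25 germ cell and meiosis, 33 imprinted, 28 Hox, 19 p53-target, 18 cell-death, 17 glycolysis, 60 histone and 88 ribosomal protein genes tested. The formative and primed list had 2 of 15 higher, the Nodal antagonist Lefty2 (1042 to 2352, 1.18, SE 0.21) and the ETS factor Etv4 (327 to 672, 1.04, SE 0.22). Khdc3, a maternal-effect gene, was the 1 higher among 6 tested oocyte genes, from 118 to 272, and Ifit3 the 1 among 21 tested interferon-stimulated genes, from 3.61 to 25.3. A count of 0 here says that no member passed both thresholds, not that the levels were equal.

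Repeat families rose with the genes. Repeats took 25.6% of all normalized counts in DMSO 2CLC and 33.2% in dTAG 2CLC, against 7.14% and 8.45% in DMSO and dTAG mESC. Of 933 families tested 27 were called higher (2.89%) and 0 lower, where 5 lower ones had an unadjusted p under 0.05. The median log2 fold change over all tested families was 0.30, with 78.1% above 0, so single families are best read against that shift. With that median subtracted from each fold change and the deposited adjusted p kept, 10 families passed as higher, of which 9 were LTR elements. That p tests against no change and not against the shift. Whether families lay above or below the shift was therefore not tested. Long terminal repeat (LTR) elements made up 22 of the 27, out of 564 LTR families tested, and 2 of 148 LINE, 3 of 161 DNA and 0 of 35 SINE families were called.

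The largest repeat change was in MER89, an old ERV1 element, which rose from 1717 to 7725 (log2 fold change 2.17, SE 0.20, adjusted p = 4.2e-23). ORR1A0, an LTR of the MaLR group, went from 2342 to 6167 (1.40, SE 0.15), and MT-int, the internal part of a related group, from 2741 to 6771 (1.30, SE 0.27). MT2_Mm, the LTR of MERVL, rose from 182380.0 to 458867 (1.33, SE 0.30, adjusted p = 7.4e-04). The internal part, MERVL-int, had 12.6% of all counts in DMSO 2CLC and 18.9% in dTAG 2CLC, but a log2 fold change of 0.99 with an SE of 0.65 (adjusted p = 0.50). The sort itself used MERVL-driven GFP, so the level of MERVL in these groups depends on the gate.

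IAP elements, young retroviruses of the ERVK group, had 5 of 25 families called, each an LTR. With the median of all families subtracted from the fold change and the adjusted p kept, 3 of 25 passed. IAPLTR2a went from 533 to 1399 (1.39, SE 0.26) and IAPEY_LTR from 141 to 375. The abundant internal part IAPEz-int had 21536 and 31751 (0.56, SE 0.31, adjusted p = 0.37). None of the 6 young L1Md families was called in 2CLC by the deposited test: L1Md_A had 54036 and 73285 (0.44, SE 0.39) and L1Md_T 93559 and 118666 (0.34, SE 0.38). In mESC both of these were called higher (1.45, SE 0.39, and 1.14, SE 0.38), and no L1Md difference between the cell states passed its test. Major satellite (GSAT_MM) had 21.2 and 16.4 (-0.38, SE 0.79).

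**Figure D5:**
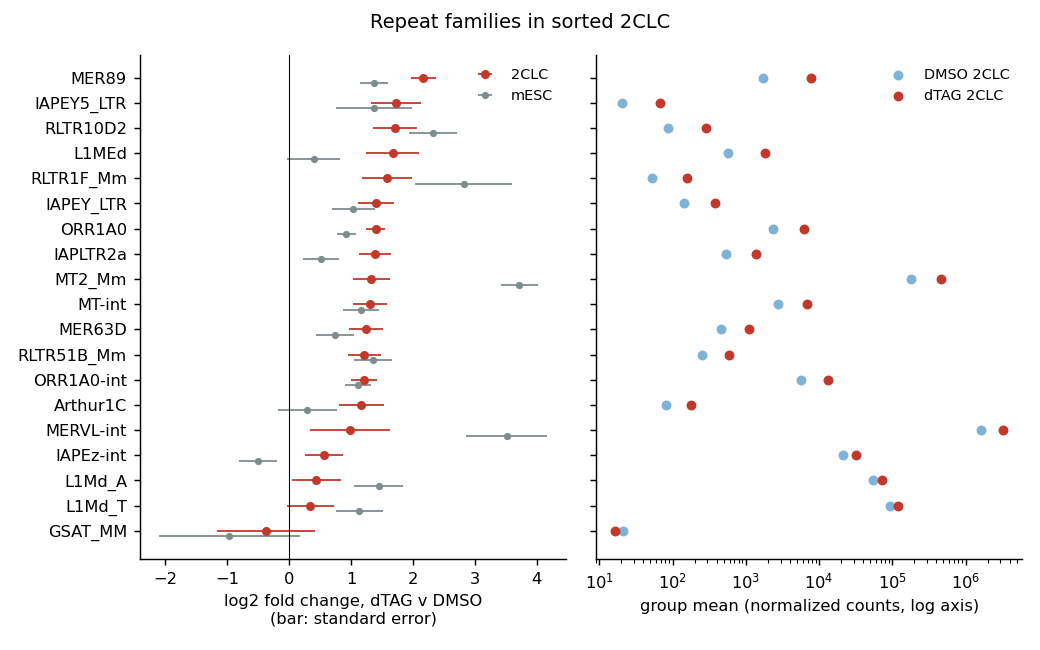
Left, log2 fold changes between dTAG and DMSO with bars of 1 standard error for the 14 called repeat families with the largest change in 2CLC and 5 families not called, in 2CLC (red) and mESC (grey). Right, the group means in DMSO 2CLC (blue) and dTAG 2CLC (red) in normalized counts on a log axis, where MER89 rises from 1717 to 7725 and MERVL-int is the most abundant family in both groups.

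Sorted mESCs had 32 of 992 tested repeat families called higher (3.23%), and 11 were shared with 2CLC, which is 40.7% of the 2CLC list and 34.4% of the mESC list. The effect in 2CLC was greater than in mESC for 0 of 933 families, where 10 had an unadjusted p under 0.05 in that direction, and it was smaller for 5 (0.536%). MT2_Mm went from 842 to 11086 in mESC (3.72, SE 0.30), and its effects differed by -2.39 (SE 0.43, adjusted p = 9.6e-06). RLTR6B_Mm had 18365 and 22248 in 2CLC (0.28, SE 0.31) and rose in mESC from 159 to 1099 (2.79, SE 0.32). The other 3 were X7C_LINE, ERVB4_2-LTR_MM and LTR86A2. In unsorted cultures 0.686% of tested families were called higher at 24 h, 2.47% at 7 d and 4.12% at 15 d. The 27 families higher in 2CLC shared 2 families with those at 24 h (7.41% of the 2CLC list, 33.3% of the other), 3 with those at 7 d (11.1% and 12.5%) and 9 with those at 15 d (33.3% and 23.7%). Of the 27, 23 were tested at 24 h, 26 at 7 d and 25 at 15 d, and untested families count as not shared.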

How the data were processed

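RNA-seq libraries (3 a group) were made from sorted cells. Per the labels and the study's methods, the authors trimmed reads with Trim Galore 0.6.7, aligned them to mm10 with STAR 2.7.10 without introns, which loses spliced reads, placed each multi-mapping read at 1 random location, counted genes (GENCODE) and repeat families together with TE Counts, and ran DESeq2 1.34.0. TE Counts was run with default parameters, and the strand setting is not named, so overlapping antisense genes are uncertain. The deposited signal values are group means of size-factor normalized counts. The log2 fold changes, their SE, the p-values and adjusted p-values of each comparison were computed by the authors (DESeq2 Wald test on all 12 sorted libraries) and were used as the main test, because no library-level value was at hand to refit it. Those comparison columns are credited to the authors throughout.

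From these, calls (adjusted p under 0.05, at least 2-fold), list counts, runs and differences of effects were computed with Python 3.11, pandas 2.3.3 and scipy 1.17.1. The difference of effects took an SE from the root of the summed squares and a 2-sided normal p. Its p-values had Benjamini-Hochberg adjustment over all genes (repeats apart). The test was run on simulated effects with independent normal errors of the same SE, which could not check independence or normality. It treats both effects as independent; they share no library, but both sorted fractions came from the same cultures, and no covariance could be taken from group means. Coordinates came from a GENCODE annotation of the same build and promoters from RefSeq. Named genes were those called with a group mean of at least 20: the 12 highest and 10 lowest protein-coding genes, the 4 highest and 4 lowest others, the 6 most abundant, the 6 highest and 6 lowest differences, and up to 6 called and 3 uncalled members of each of 46 lists. Genes outside the rule are said to be named after their values were seen. The members and lists were chosen with earlier results of these data known.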

Additional observations from a re-analysis of the deposited data

Results flagged for a closer look

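For each result here the effect of dTAG in 2CLC and that in mESC differed by the test of the difference itself. The 2CLC effect was greater, on the log2 scale, by 3.40 in Gm18856, 3.03 in Rgs11, 3.03 in Slc19a3, 2.50 in Fam186b, 2.34 in Gm12623 and 1.95 in Eomes. Of these, Slc19a3, Gm18856 and Gm12623 rose in 2CLC, while Eomes and Rgs11 fell in mESC and were not called in 2CLC. Fam186b had 16.1 and 5.33 in mESC and 38.0 and 71.7 in 2CLC, and neither effect was called alone.

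Genes of the 2-cell stage made up most of the named genes with a smaller effect in 2CLC. Members of the 2-cell-stage, Usp17l and Spopfm lists entered this set by rule, so that majority follows from the selection and is no result. The difference was -3.92 in Tdpoz6, -3.15 in Spopfm1, -2.84 in Gm4340 and -2.72 in Zscan4f. In the Usp17l family it was -3.09 in Usp17la, -3.01 in Usp17lb, -2.79 in Usp17le, -2.76 in Usp17lc and -2.53 in Usp17ld. It was -2.69 in Gm8300, -2.27 in Gm4027, -2.15 in Gm2016 and -2.13 in Eif4a3l1. In all of these the mESC effect was the larger rise and the DMSO mESC level the lower start. Carry-over of GFP-positive cells into the mESC fraction was not tested for these genes. The pseudogene Gm8689 (-5.97) rose in mESC from 0.356 to 9.90 and fell in 2CLC from 242 to 118, and the noncoding gene Gm48187 (-5.71) had a DMSO mESC mean of 0.309. For Sfi1 (-1.79) and Pisd-ps1 (-1.31) the fall in 2CLC was the larger effect.

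Among repeat families the difference was -2.52 in RLTR6B_Mm, -2.39 in MT2_Mm, -2.12 in X7C_LINE, -1.88 in ERVB4_2-LTR_MM and -1.82 in LTR86A2, and each of the 5 was called higher in mESC.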

How the results depend on the processing

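Under an adjusted p of 0.01, 37 genes were lower (357 called in all), 17 repeat families were higher (17 in all), the 2CLC effect was greater for 16 genes and smaller for 198 (214 in all), and it was smaller for 3 repeat families (3 in all). With a 1.5-fold threshold 168 genes were lower. With no fold threshold 199 were lower and 870 called in all. With protein-coding genes alone 298 were higher and 357 called in all. After seeing the data, genes under 5 in DMSO mESC were left out, which gave 235 higher and 310 in all. Also after seeing the data, repeat fold changes were shifted by their own median with the adjusted p kept, which gave 10 higher and 10 in all. The other counts over all genes or all families stayed within 1.5 times their main value. Counts within lists moved more under both settings added after seeing the data. Leaving out genes under 5 in DMSO mESC left 12 of 31 genes of the 2-cell stage called, 1 of 1 Spopfm and Tdpoz genes and 0 of 10 Obox genes, but 5 of 5 Usp17l genes, and the shift of repeats left 3 of 25 IAP families, 1 of 28 ORR1 families and 9 of 564 LTR families. Over 106 named results and 753 values, 723 kept their direction and call, 28 lost the call, 2 gained one and 0 reversed. Many of these values could hardly lose a call. The looser fold settings can only keep or add calls, and genes left out by a setting give no value. The shift by the gene median was very small, and the difference taken from the other pair of comparisons is the same quantity. The tally is thus no measure of how firm the calls are. Leaving out a library, other normalizations, pseudocounts and refits were not run, since only group means were at hand. No paired analysis was possible because the columns carry group means without replicate numbers. The unknown depth of each library limits what can be said of low genes.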

Other observations

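Several of the genes that fell lie at the start of the assembled chromosomes, a pattern noticed after their values were seen. Of 95 tested genes that start within the first 3.5 Mb of a chromosome (mitochondrial and Y genes left out), 5 were called lower (Sfi1, Pisd-ps1, Pisd-ps2, Gm7344 and Tesmin) and 3 higher, beside 0.424% and 2.59% of all tested genes. Tesmin, a gene of the male germ line, fell from 73.4 to 26.5 (log2 fold change -1.45, SE 0.38), and Gm7344 from 24.7 to 4.70. Over the 95 genes, 61 had a fold change below 0. Pisd-ps1, Pisd-ps2 and Gm7344 are annotated as pseudogenes, and reads that match several copies were placed at 1 of them at random.

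Among the genes that fell, Bnip3, Ndufa4l2 and Slc16a3 were abundant ones, named after their values were seen. Bnip3, a mitophagy receptor, went from 653 to 183 in 2CLC (-1.84, SE 0.45) and from 428 to 169 in mESC (-1.34, adjusted p = 0.046). Ndufa4l2 went from 194 to 52.8 and from 226 to 55.7. The lactate exporter gene Slc16a3 fell in 2CLC from 1602 to 729.8 and had 1466 and 729.6 in mESC, where it was not called (adjusted p = 0.07).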
